A study of Mus musculus with 12 samples.

Results

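The core pluripotency and Dppa genes of mouse primordial germ cells are described here across the sexes and across conditional loss of Ezh2. The 10 genes were chosen by symbol: Pou5f1, Nanog, Sox2, Dppa2, Dppa3, Dppa4, Dppa5a, Zfp42, Utf1 and Gdf3. They and the gene lists used below were chosen with earlier results of these data known. Their counts set beside those of all genes are therefore descriptions and no independent test. All 10 were among the 37991 gene identifiers of the count table and all 10 were among the 16708 genes with enough counts to be tested. Each of the 12 libraries is RNA of primordial germ cells sorted from 1 embryo of the C57BL/6 background at E13.5 (embryonic day). The groups are female Ezh2 CKO (conditional knockout, 2 embryos), female Ctrl (control, 3 embryos), male Ezh2 CKO (3 embryos) and male Ctrl (4 embryos). The column headers write WT for Ctrl and KO for CKO. The Cre driver, the alleles of the Ctrl embryos and the deleted exons are not given in the sources used here.

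POU5F1, SOX2 and NANOG are transcription factors that bind many enhancers together and hold embryonic stem cells and the early epiblast in a pluripotent state. Primordial germ cells keep or regain this network after they are specified, and female germ cells shut it down as they enter meiosis, while male germ cells lower it later, during mitotic arrest. The Dppa genes (developmental pluripotency associated) were found as genes expressed like Pou5f1 and do not all encode related proteins. EZH2 is the methyltransferase of Polycomb repressive complex 2, which places the repressive mark H3K27me3.

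Total counts were between 26180685 and 35299206 per library, and each of the 10 genes had between 553 and 45846 counts in a library. Levels are given as CPM (read counts scaled to library size and TMM factors, the trimmed mean of M values), and levels of different genes are compared as RPKM, which is CPM per kilobase of exon. Ezh2, the targeted gene, had 84.5 and 107 CPM in female CKO, against 150, 145 and 166 CPM in female Ctrl (-0.68 on the log2 scale, SE 0.15, edgeR adjusted p = 0.0200). It had 85.8, 82.4 and 85.0 CPM in male CKO, against 96.6, 144, 129 and 119 CPM in male Ctrl (-0.53 on the log2 scale, SE 0.13, edgeR adjusted p = 0.0527). Every CKO library was thus below every Ctrl library of its sex, and leaving out female CKO 1 (edgeR adjusted p = 0.165) or female Ctrl 3 (0.0779) ended the female call. The 7 germ cell markers were detected in every group and summed to between 4303 and 5326 CPM. The Sertoli cell, pregranulosa, interstitial, endothelial, macrophage, red blood cell and mesonephric or coelomic marker lists each summed to at most 19.6 CPM. Of these, the 4 mesonephric and coelomic markers stood at 3.98 and 7.46 CPM in female CKO, against 0.614 to 1.06 CPM in female Ctrl, and at 3.82 to 4.20 CPM in male CKO, against 0.847 to 2.10 CPM in male Ctrl. In female CKO, against female Ctrl, interstitial markers stood at 4.65 and 8.52 CPM, against 3.00 to 3.56 CPM, endothelial markers at 5.18 and 5.39 CPM, against 2.83 to 3.78 CPM, and Sertoli cell markers at 2.17 and 2.05 CPM, against 0.891 to 1.00 CPM. Red blood cell markers reached 15.7 CPM in female CKO 1 and 17.1 CPM in a male CKO library, and lower in every Ctrl library. The part of these other cells in the results was not tested, and in sorted bulk RNA, fewer cells expressing a gene and less RNA per cell cannot be told apart.

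In female germ cells, 5 of the 10 genes fell with loss of Ezh2, namely Pou5f1, Nanog, Dppa3, Dppa5a and Gdf3. Among all tested genes 7.17% were called in this comparison and 4.16% were called lower. The fold changes of all 10 genes were below 0, with a median log2 fold change of -0.54, against -0.0036 for all genes tested. Called means a p under 0.05 in the quasi-likelihood test of edgeR after Benjamini-Hochberg adjustment across the 16708 genes. In males 0 of the 10 genes were called, where 1.70% of all genes were, and the largest difference from Ctrl in size was that of Gdf3, at -0.35.

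Pou5f1 (ENSMUSG00000024406, chromosome 17), the POU-domain factor required for pluripotency and for germ cell survival, had 128 and 156 CPM in female CKO, against 196, 220 and 214 CPM in female Ctrl. It had 238, 255 and 264 CPM in male CKO, against 312, 291, 254 and 281 CPM in male Ctrl. The female groups did not overlap, while 1 male Ctrl library lay within the range of male CKO. Its log2 fold change was -0.56 in females (SE 0.12, edgeR adjusted p = 0.0142), so it fell by 32.2%, and -0.17 in males (95% interval -0.38 to 0.03, edgeR adjusted p = 0.385). Groups that do not overlap with CKO on the lower side were seen in 22.3% of all tested genes in females and in 6.97% in males. A gene model on the opposite strand, Gm19553, shares 317 exonic bases with Pou5f1 and reached at most 0.0993 CPM in any library.

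Nanog (ENSMUSG00000012396, chromosome 6), the homeobox factor that stabilises the pluripotent state, had 35.2 and 57.2 CPM in female CKO, against 67.6, 106 and 114 CPM in female Ctrl. It had 126, 108 and 127 CPM in male CKO, against 112, 143, 132 and 142 CPM in male Ctrl. Female CKO 1 was the lowest of all 12 libraries, the female groups did not overlap, and the male groups did. The log2 fold change was -1.05 in females (SE 0.23, edgeR adjusted p = 0.0177) and -0.13 in males (95% interval -0.53 to 0.26, edgeR adjusted p = 0.773).

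Sox2 (ENSMUSG00000074637, chromosome 3), the partner of POU5F1 on composite octamer and SOX elements, was not called in either sex. It had 85.0 and 112 CPM in female CKO, against 98.4, 111 and 90.8 CPM in female Ctrl. It had 95.6, 98.8 and 99.3 CPM in male CKO, against 95.5, 88.1, 79.6 and 96.3 CPM in male Ctrl. The ranges of all 4 groups overlapped or touched within 79.6 to 112 CPM, and the lowest and the highest value outside male Ctrl both came from the female CKO libraries. The log2 fold change was -0.03 in females (95% interval -0.32 to 0.26, edgeR adjusted p = 0.927) and 0.12 in males (-0.12 to 0.36, edgeR adjusted p = 0.635).

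Promoter windows of the members that the RefSeq table covers (5 of 10 genes, build GRCm38.p6) are shown for Nanog, Zfp42, Sox2 and Pou5f1, since these genes share proposed regulators in embryonic stem cells and differ in their values here. Each window is the 250 bases upstream of the first annotated start, on the gene's own strand, and capitals mark ATGCAAA, the first part of the octamer bound by POU factors, and CATTGT, the core of a SOX element, read on either strand. In embryonic stem cells the Nanog promoter is known for a composite octamer and SOX element bound by POU5F1 and SOX2.
Nanog, chr6:122707239-122707488, plus strand: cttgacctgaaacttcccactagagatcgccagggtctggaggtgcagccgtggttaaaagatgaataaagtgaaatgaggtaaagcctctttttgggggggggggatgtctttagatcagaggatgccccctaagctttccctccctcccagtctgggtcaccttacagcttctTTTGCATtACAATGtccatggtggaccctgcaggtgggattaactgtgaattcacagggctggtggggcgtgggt
Zfp42, chr8:43307010-43307259, minus strand: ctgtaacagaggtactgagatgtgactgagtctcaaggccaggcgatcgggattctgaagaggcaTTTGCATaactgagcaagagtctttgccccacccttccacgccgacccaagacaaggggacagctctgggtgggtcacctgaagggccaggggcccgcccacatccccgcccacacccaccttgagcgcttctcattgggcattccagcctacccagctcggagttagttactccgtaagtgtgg
Sox2, chr3:34649745-34649994, plus strand: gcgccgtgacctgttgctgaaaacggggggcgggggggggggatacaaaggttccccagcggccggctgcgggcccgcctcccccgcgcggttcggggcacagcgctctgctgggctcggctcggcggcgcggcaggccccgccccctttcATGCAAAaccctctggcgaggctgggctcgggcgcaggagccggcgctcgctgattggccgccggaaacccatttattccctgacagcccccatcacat
Pou5f1, chr17:35505782-35506031, plus strand: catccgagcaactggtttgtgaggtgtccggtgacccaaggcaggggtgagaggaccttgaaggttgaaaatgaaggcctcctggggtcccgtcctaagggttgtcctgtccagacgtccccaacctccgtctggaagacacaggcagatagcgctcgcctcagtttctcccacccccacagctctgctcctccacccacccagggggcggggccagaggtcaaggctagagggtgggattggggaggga
The Nanog window holds TTTGCAT and ACAATG separated by a single base, beginning 75 and 67 bases upstream of the start. In a Nanog window before another annotated start, not shown, the same stretches begin 151 and 143 bases upstream. The Zfp42 window holds TTTGCAT 185 bases upstream and the Sox2 window ATGCAAA 99 bases upstream. The 7-letter octamer stretch was added to the motif list after these windows had been read, and 4.12% of 32851 windows of this length hold it on either strand, while 10.7% hold CATTGT. This SOX core was found for Nanog and in a window of Pou5f1 before another annotated start, which is not shown. The full octamer ATGCAAAT was found only for Zfp42 among the covered genes (1.60% of all windows), the E-box CACGTG (6.02%) and TTCCCGCC (1.86%) in none of their windows, and GGGCGG (32.7%) in windows of Sox2, Utf1, Zfp42 and Pou5f1. CG dinucleotides numbered 3 in the Nanog window, 9 in Zfp42, 27 in Sox2 and 8 in Pou5f1, against a median of 6, and 91.4% of all windows had fewer than that of Sox2. A match is a string of letters and no measurement of binding.

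**Figure D1:**
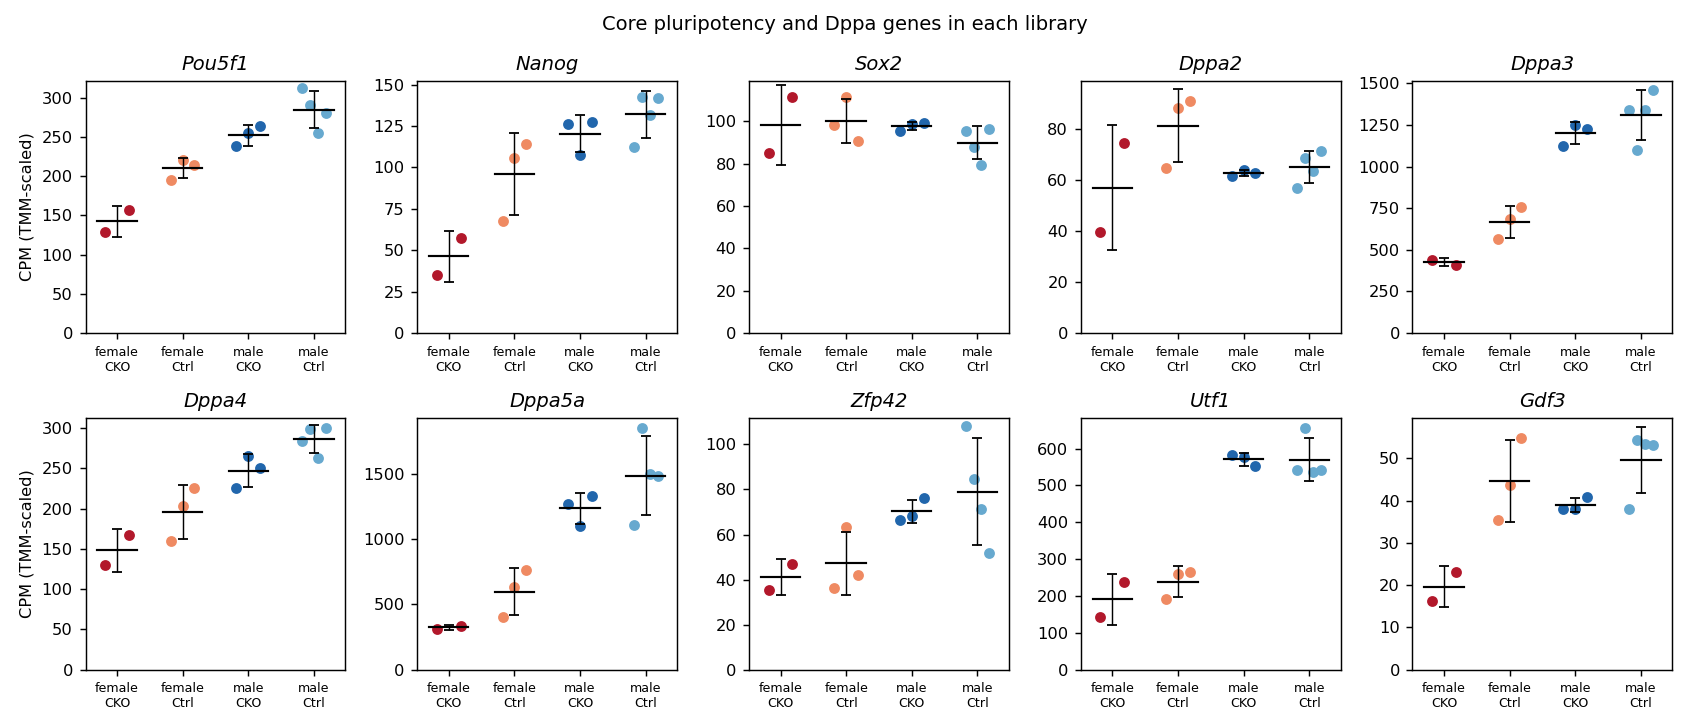
Level of each gene in CPM (vertical axes, each from 0) for CKO and Ctrl females and then CKO and Ctrl males (horizontal axis); points are embryos, the horizontal line is the mean and the bar the SD. Pou5f1, Nanog, Dppa3, Dppa5a and Gdf3 of the 2 female CKO embryos lie below the 3 female Ctrl embryos, and Sox2 lies between 79.6 and 112 CPM in all groups.

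Among the Dppa genes, Dppa3 and Dppa5a fell in female CKO germ cells and Dppa2 and Dppa4 did not pass the test. Dppa3 (ENSMUSG00000046323, chromosome 6), also called Stella, encodes a maternal factor that protects DNA methylation in the zygote. It had 441 and 408 CPM in female CKO, against 564, 682 and 757 CPM in female Ctrl. It had 1124, 1249 and 1228 CPM in male CKO, against 1339, 1099, 1342 and 1458 CPM in male Ctrl. The female groups did not overlap and their log2 fold change was -0.65 (SE 0.14, edgeR adjusted p = 0.0147), while the male groups overlapped, with a log2 fold change of -0.13 (95% interval -0.37 to 0.11, edgeR adjusted p = 0.626). The pseudogene Dppa3-ps had at most 0.293 CPM in any library.

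Dppa5a (ENSMUSG00000060461, chromosome 9) encodes a small KH-domain RNA-binding protein. It had 309 and 338 CPM in female CKO, against 407, 630 and 760 CPM in female Ctrl. It had 1268, 1103 and 1333 CPM in male CKO, against 1111, 1852, 1498 and 1480 CPM in male Ctrl. The female CKO libraries lay close together below a wide Ctrl group, and of the male Ctrl libraries only male Ctrl 1 lay within the range of male CKO. The log2 fold change was -0.89 in females (SE 0.23, edgeR adjusted p = 0.0367) and -0.27 in males (95% interval -0.67 to 0.14, edgeR adjusted p = 0.523). That female value no longer passed with library size as the only scaling (edgeR adjusted p = 0.0565), with no filter on low counts (0.110), with the replicate number of the titles as a block (-0.76, 0.0528) and when any of 4 of the 5 female libraries was left out.

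Dppa2 and Dppa4 encode SAP-domain proteins that act as a heterodimer on bivalent and CG-rich promoters. Dppa4 (ENSMUSG00000058550, chromosome 16) had 130 and 167 CPM in female CKO, against 160, 203 and 225 CPM in female Ctrl. It had 225, 266 and 251 CPM in male CKO, against 284, 300, 263 and 300 CPM in male Ctrl. Ranges overlapped in both sexes, by a single library on each side, and the log2 fold changes were -0.40 in females (SE 0.15, edgeR adjusted p = 0.117) and -0.21 in males (SE 0.12, edgeR adjusted p = 0.407). Dppa2 (ENSMUSG00000072419, chromosome 16) had 39.6 and 74.5 CPM in female CKO, against 64.8, 88.4 and 90.9 CPM in female Ctrl. It had 61.6, 64.2 and 62.6 CPM in male CKO, against 57.1, 68.6, 63.6 and 71.6 CPM in male Ctrl. Female CKO 1 was the lowest library and female CKO 2 lay within the Ctrl range, so that the female log2 fold change of -0.51 had an edgeR adjusted p of 0.173 (SE 0.22). Without female CKO 2 it was -1.03 (edgeR adjusted p = 0.0287).

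Gdf3 (ENSMUSG00000030117, chromosome 6), a TGF-beta family ligand that signals through activin receptors and the co-receptor encoded by Tdgf1, showed the largest fold change of the 10 genes in CKO females. It had 16.2 and 23.1 CPM in female CKO, against 35.4, 43.8 and 54.9 CPM in female Ctrl. It had 38.0, 38.1 and 40.9 CPM in male CKO, against 38.0, 54.3, 53.3 and 53.1 CPM in male Ctrl. Female CKO lay below all other libraries. Male CKO lay at the level of the lowest male Ctrl embryo. The log2 fold change was -1.19 in females (SE 0.21, edgeR adjusted p = 0.00773) and -0.35 in males (95% interval -0.72 to 0.02, edgeR adjusted p = 0.333).

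Zfp42 and Utf1 were not called in CKO germ cells of either sex. Zfp42 (ENSMUSG00000051176, chromosome 8), also called Rex1, encodes a zinc finger protein used as a marker of naive pluripotency. It had 35.4 and 46.9 CPM in female CKO, against 36.5, 63.1 and 42.3 CPM in female Ctrl, with overlap (-0.20 on the log2 scale, SE 0.27, edgeR adjusted p = 0.705). It had 66.4, 68.3 and 76.1 CPM in male CKO, within the 108, 84.8, 71.4 and 51.7 CPM of male Ctrl (-0.17 on the log2 scale, SE 0.23, edgeR adjusted p = 0.766). Utf1 (ENSMUSG00000047751, chromosome 7) encodes a chromatin-associated factor that limits loading of Polycomb complex 2 at bivalent genes in embryonic stem cells. It had 142 and 239 CPM in female CKO, against 192, 261 and 265 CPM in female Ctrl, with overlap (-0.33 on the log2 scale, SE 0.19, edgeR adjusted p = 0.319). It had 583, 578 and 552 CPM in male CKO, against 543, 657, 536 and 542 CPM in male Ctrl, with overlap (0.00 on the log2 scale, 95% interval -0.33 to 0.34, edgeR adjusted p = 0.996).

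The female calls depended on single embryos. Without female CKO 1, 0 of the 10 genes were called, with log2 fold changes of -0.42 for Pou5f1 (edgeR adjusted p = 0.130), -0.74 for Nanog (0.149), -0.71 for Dppa3 (0.0664), -0.82 for Dppa5a (0.199) and -0.95 for Gdf3 (0.0777). Without female CKO 2, Dppa3 (-0.59, edgeR adjusted p = 0.119) and Dppa5a (-0.94, 0.151) were not called and Dppa2 was. Without female Ctrl 1 the 5 calls held and Dppa4 joined them (-0.52, edgeR adjusted p = 0.0481). Without female Ctrl 2 only Dppa3 and Gdf3 were called, and without female Ctrl 3 only Gdf3. Calls among all genes fell as well in these fits, to 348 without female CKO 1, 317 without female CKO 2, 691 without female Ctrl 1, 525 without female Ctrl 2 and 425 without female Ctrl 3, against 1198 with all libraries. Over all genes 503 were higher and 695 lower, and with library size as the only scaling 652 were higher and 357 lower, while the median of all genes stood at 0.11. All 5 called genes stayed below 0, and so below that median, under this scaling, though Dppa5a lost its call (-0.77, edgeR adjusted p = 0.0565). Gdf3 kept its call in every other setting and with every other library left out.

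**Figure D2:**
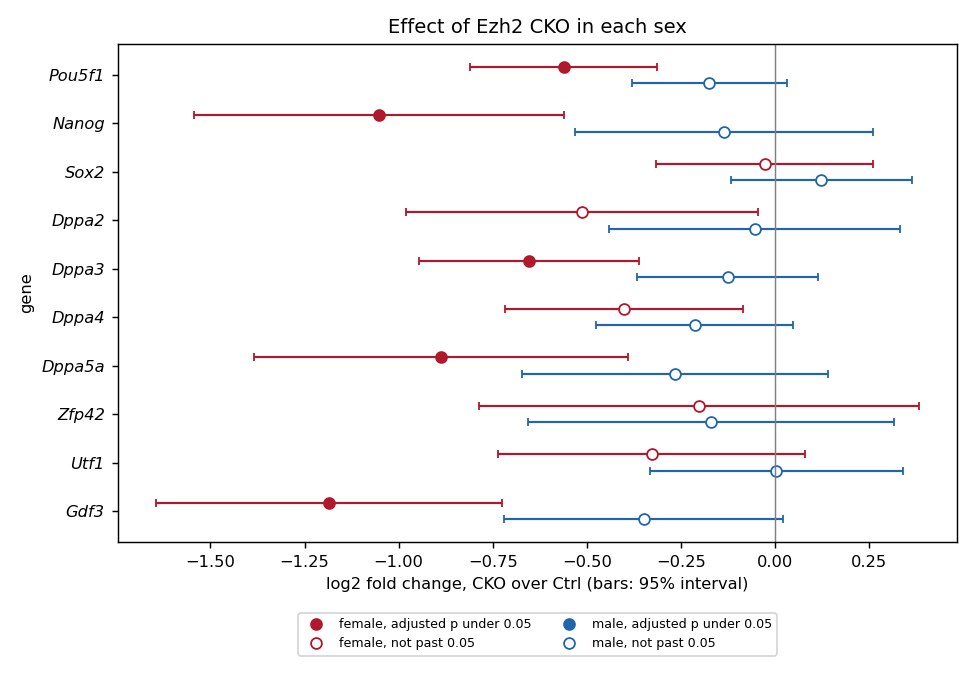
log2 fold change of CKO over Ctrl (horizontal axis) for each gene (vertical axis), in females (upper point of each pair) and males (lower point), with 95% intervals from the edgeR fit; filled points have an adjusted p under 0.05. The 5 filled points are all female and negative, between -0.56 for Pou5f1 and -1.19 for Gdf3, and the male intervals all include 0.

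In male germ cells none of the 10 genes was called in edgeR (0 at an unadjusted p under 0.05), limma-voom (0) or DESeq2 (0), where 1.70% of all genes were called in edgeR. Of the 10 fold changes 8 were below 0, with a median of -0.15, against -0.02 for all genes. The difference between the female and the male effect was tested as an interaction. It was called for 0 of the 10 genes and for 0.00% of all genes in edgeR, and for 0 of the 10 in limma-voom and in DESeq2. At an unadjusted p under 0.05 it included 4 of the 10 genes and 1401 of the 16708 tested. These were Nanog (-0.92), Gdf3 (-0.84), Dppa3 (-0.53) and Pou5f1 (-0.39), with edgeR adjusted p between 0.493 and 0.524. The female and male effects of these genes were therefore not shown to differ.

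The mean of the female and male effects was lower in CKO for 6 of the 10 genes, where 14.7% of all genes were called and 7.87% were called lower. Gdf3 (-0.77, edgeR adjusted p = 0.00331), Pou5f1 (-0.37, 0.00682), Dppa3 (-0.39, 0.0112), Nanog (-0.59, 0.0171), Dppa5a (-0.58, 0.0213) and Dppa4 (-0.31, 0.0457) passed. Over all genes 1145 were higher and 1315 lower, and 1505 higher and 782 lower with library size as the only scaling. Without female CKO 1 or without female Ctrl 3, 3 of the 10 passed. Dppa4 lost its call in 14 of 20 alternative fits.

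Between the sexes most of the 10 genes were lower in female germ cells, in CKO and in Ctrl embryos alike. In CKO embryos 8 of 10 were lower in females, where 38.4% of all genes were called and 19.0% were called lower. In Ctrl embryos 6 of 10 were lower in females, where 39.5% of all genes were called and 19.4% were called lower. With library size as the only scaling, 4336 genes were higher and 2212 lower in CKO females, against 3239 and 3172 with TMM. For the Ctrl embryos these numbers were 4062 and 2592, against 3358 and 3246. The median of all genes moved to 0.21 in the CKO embryos and 0.10 in the Ctrl embryos under this scaling, and each of the 10 genes that was called lower with TMM stayed below 0, though Zfp42 lost its call in the CKO embryos (-0.59, edgeR adjusted p = 0.109).

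Dppa5a had the largest sex difference, with a mean of 324 ± 20.3 CPM in female CKO (SD, n = 2) and 1235 ± 119 CPM in male CKO (n = 3), or -1.93 on the log2 scale (SE 0.24, edgeR adjusted p = 5.74e-05). In Ctrl it averaged 599 ± 179 CPM in females (n = 3) and 1485 ± 303 CPM in males (n = 4), or -1.31 on the log2 scale (SE 0.19, edgeR adjusted p = 0.000168). Utf1 was lower in females by 1.58 on the log2 scale in CKO and by 1.25 in Ctrl, and Dppa3 by 1.50 and 0.97 (edgeR adjusted p at most 5.74e-05 in each). For these genes the female and male libraries did not overlap within either genotype. Groups that do not overlap with females on the lower side were seen in 30.8% of all genes in CKO and in 21.1% in Ctrl.

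Pou5f1 was lower in females by 0.83 on the log2 scale in CKO (SE 0.12, edgeR adjusted p = 0.000142) and by 0.44 in Ctrl (SE 0.10, 0.00273). Dppa4 was lower by 0.74 in CKO (SE 0.15, edgeR adjusted p = 0.0017) and by 0.55 in Ctrl (SE 0.12, 0.00312). Neither gene overlapped between the sexes in a genotype. Zfp42 was lower by 0.77 in CKO (edgeR adjusted p = 0.0406) and by 0.74 in Ctrl (0.0201), its Ctrl groups overlapped, and its calls were lost in 8 of 14 and 4 of 16 alternative fits.

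Nanog and Gdf3 passed the sex test in CKO embryos and not in Ctrl embryos. Nanog had a log2 fold change of -1.38 in CKO (SE 0.23, edgeR adjusted p = 0.000479) and -0.46 in Ctrl (SE 0.19, 0.0622), and the Ctrl value passed in limma-voom (0.0299), in DESeq2 (0.0428) and in edgeR with the column header's number as a block (0.0210). Gdf3 had -0.99 in CKO (SE 0.21, edgeR adjusted p = 0.00256) and -0.15 in Ctrl (SE 0.17, 0.510). The test of the difference between these sex effects is the interaction given above, which called neither gene. Sox2 had log2 fold changes of 0.01 in CKO (95% interval -0.28 to 0.29) and 0.16 in Ctrl (-0.08 to 0.40), and Dppa2 -0.14 (-0.60 to 0.33) and 0.32 (-0.07 to 0.70), none of them called. The sex and the CKO comparisons share libraries and are not independent of each other.

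**Figure D3:**
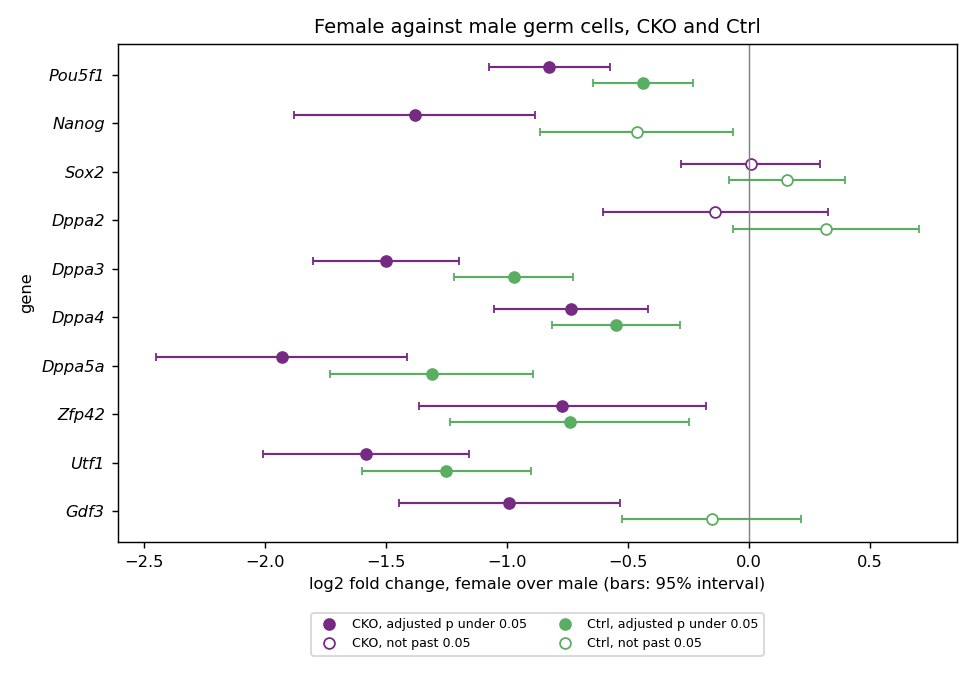
log2 fold change of female over male germ cells (horizontal axis) for each gene (vertical axis), in CKO embryos (upper point of each pair) and Ctrl embryos (lower point), with 95% intervals from the edgeR fit; filled points have an adjusted p under 0.05. Dppa5a, Utf1 and Dppa3 lie farthest below 0 in both genotypes, and the intervals of Sox2 and Dppa2 include 0.

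On the RPKM scale Dppa5a and Dppa3 were the most abundant of the 10 genes and Gdf3 the least in every group. Dppa5a averaged 523 ± 32.9 RPKM in female CKO (SD, n = 2), 967 ± 289 in female Ctrl (n = 3), 1995 ± 192 in male CKO (n = 3) and 2399 ± 489 in male Ctrl (n = 4). Gdf3 averaged 8.10 ± 2.01 RPKM in female CKO, 18.4 ± 4.03 in female Ctrl, 16.1 ± 0.663 in male CKO and 20.5 ± 3.21 in male Ctrl. Utf1, Dppa4 and Pou5f1 followed Dppa3 in this order of means in all 4 groups, and Nanog, Sox2, Zfp42 and Dppa2 took the 4 places above Gdf3. The RPKM of Dppa5a and Dppa3 overlapped in female Ctrl, at 657 to 1228 and 632 to 848, while within each of the 12 libraries Dppa5a was the higher, by a ratio of 1.04, 1.33 and 1.45 in the female Ctrl libraries. Zfp42 and Nanog likewise overlapped in female CKO, at 18.8 to 24.9 and 15.7 to 25.5 RPKM.

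The place of Nanog within this order moved most. It was ninth in female CKO, with 20.6 ± 6.95 RPKM against 47.8 ± 9.16 RPKM for Sox2, and seventh in female Ctrl, with 42.7 ± 11.0 RPKM against 48.7 ± 5.06 RPKM for Sox2. In male CKO it was sixth, with 53.7 ± 4.97 RPKM and Sox2 at 47.6 ± 0.987 RPKM, and in male Ctrl sixth, with 58.9 ± 6.33 RPKM and Sox2 at 43.7 ± 3.78 RPKM. The group means of Pou5f1, Nanog, Dppa3, Dppa4, Dppa5a and Zfp42 ran upward from female CKO over female Ctrl and male CKO to male Ctrl. This order was found in 14.2% of all tested genes.

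Ratios of RPKM within a library do not depend on how libraries are scaled, and those given here were chosen after the levels had been seen, so they are descriptions with no test. Pou5f1 over Sox2 was 1.38 and 1.28 in female CKO, against 1.82, 1.81 and 2.16 in female Ctrl. It was 2.28, 2.36 and 2.43 in male CKO, against 2.99, 3.02, 2.92 and 2.67 in male Ctrl. The 4 groups did not overlap in this ratio. How many other gene ratios separate the groups in this way was not computed. Nanog over Sox2 was 0.380 and 0.470 in female CKO, against 0.630, 0.872 and 1.15 in female Ctrl, again without overlap. It ran from 0.999 to 1.21 in male CKO and from 1.08 to 1.52 in male Ctrl, with overlap. Nanog over Pou5f1 overlapped in both sexes. It ran from 0.275 to 0.367 in female CKO and from 0.346 to 0.533 in female Ctrl. In males it ran from 0.423 to 0.532 in CKO and from 0.361 to 0.519 in Ctrl.

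**Figure D4:**
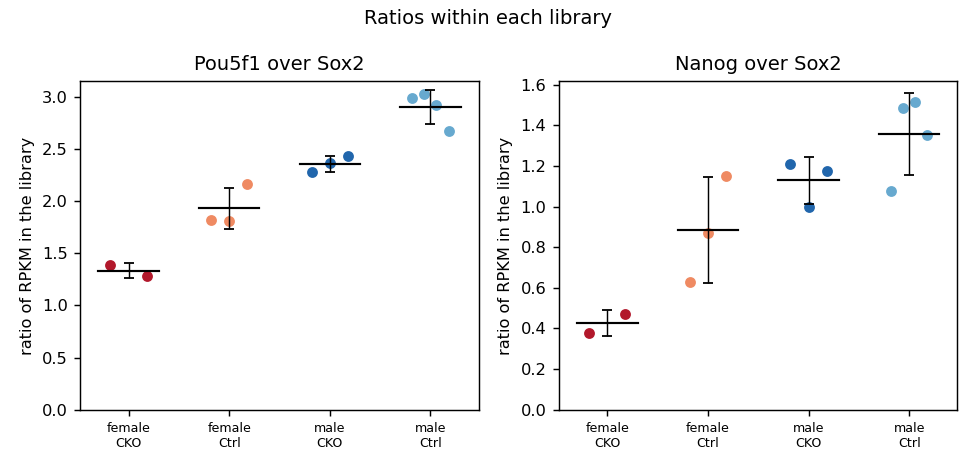
Ratio of RPKM of Pou5f1 to Sox2 (left) and of Nanog to Sox2 (right) in each library (vertical axes from 0), for CKO and Ctrl females and then CKO and Ctrl males; points are embryos, the horizontal line is the mean and the bar the SD. The ratio of Pou5f1 to Sox2 separates all 4 groups, with means of 1.33, 1.93, 2.36 and 2.90.

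Dppa2 over Dppa4, the dimer partners, ran from 0.208 to 0.303 in female CKO, from 0.274 to 0.296 in female Ctrl, from 0.164 to 0.186 in male CKO and from 0.136 to 0.164 in male Ctrl. The ratio was higher in every female library than in any male library. Dppa4 was lower in females in both genotypes and Dppa2 was not called between the sexes. Gdf3 over Nanog ran from 0.373 to 0.426 in female CKO and from 0.383 to 0.485 in female Ctrl, so the ranges of this ratio overlapped. In the RefSeq gene order of GRCm38.p6, Gdf3, Dppa3 and Nanog are consecutive protein-coding genes on chromosome 6, and Dppa4 and Dppa2 are neighbours on chromosome 16. All 3 genes of the chromosome 6 cluster were called lower in female CKO, and neither gene of the chromosome 16 pair was. Among all tested genes 4.16% were called lower in this comparison. The calls in both places changed when single embryos were left out, as given above, and an effect of position was not tested.

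Embryos of the same group differed across the 10 genes. Relative to each gene's mean log2 level over the 12 libraries, the average of the 10 genes was -0.99 and -0.56 in female CKO, against -0.48, -0.06 and -0.04 in female Ctrl. It was 0.20, 0.22 and 0.28 in male CKO, against 0.31, 0.45, 0.31 and 0.36 in male Ctrl. Female CKO 1 was the lowest of the 12 libraries for 8 of the 10 genes, and female Ctrl 3 was the highest of the females for 7. The share of all genes with these libraries at the extreme was not computed, so these counts do not set the 10 genes apart from other genes. The SD within groups on the log2 scale was 0.36 for Zfp42, 0.31 for Dppa5a and 0.29 for Nanog, where the median of 500 genes of like level was 0.16, 0.12 and 0.15. Pou5f1 had 0.12 against 0.14, and Sox2 0.15 against 0.15.

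**Figure D5:**
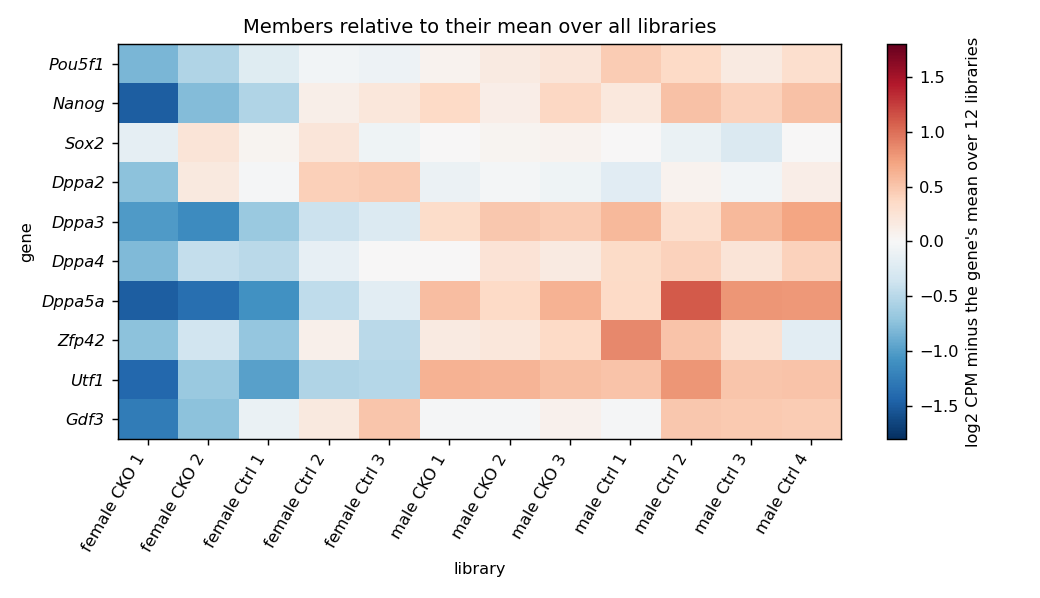
log2 CPM of each gene (rows) in each library (columns) minus the gene's mean over the 12 libraries, with the scale at the right. Female CKO 1 is the lowest column, Nanog there stands at -1.49, and the male columns are mostly above 0. Sox2, Dppa2 and Gdf3 do not follow the female to male order that the group means of the other rows show.

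The same female CKO embryos differed in meiotic genes. Stra8, the retinoic acid target that starts meiosis, had 580 and 300 CPM in female CKO, against 296, 276 and 212 CPM in female Ctrl (0.75 on the log2 scale, SE 0.35, edgeR adjusted p = 0.227). In males, where its level was far lower, Stra8 was also higher in CKO without passing the test. It had 4.67, 9.74 and 5.02 CPM in male CKO, against 1.81, 1.07, 2.22 and 3.56 CPM in male Ctrl (1.58 on the log2 scale, SE 0.38, edgeR adjusted p = 0.0586). Sycp3, of the synaptonemal complex, had 216 and 102 CPM in female CKO, against 70.1, 87.0 and 65.5 CPM in female Ctrl (1.10 on the log2 scale, SE 0.24, edgeR adjusted p = 0.0185). The male log2 fold change of Sycp3 was 0.32 (SE 0.21, edgeR adjusted p = 0.473). Female CKO 1, lowest for most of the pluripotency genes, was the highest library for both. Over all genes 503 of 16708 were called higher in female CKO, with a median log2 fold change of -0.0036. Of 11 early meiosis genes tested, 2 were higher and 0 lower in female CKO, with a median log2 fold change of 0.57, and 0 were called without female CKO 1. Without that library the log2 fold change of Sycp3 was 0.46 (edgeR adjusted p = 0.266) and that of Stra8 0.20 (0.848), and without female CKO 2 they were 1.55 (0.00348) and 1.16 (0.158). Sycp3 also lost its call without female Ctrl 1 (edgeR adjusted p = 0.0551), without female Ctrl 3 (0.0728) and with the replicate number as a block, taken from the titles (0.0515) or from the column headers (0.107). The part of these values in the fall of the pluripotency genes was not tested.

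Partners and co-factors of the core network were mostly below 0 as well in female CKO germ cells. Of 20 tested, 5 were lower and 1 higher, with a median log2 fold change of -0.40. Over all genes 7.17% were called and 4.16% were called lower, with a median of -0.0036. Mybl2, a cell cycle transcription factor, was at 199 CPM in female CKO and 295 CPM in female Ctrl (-0.56, edgeR adjusted p = 0.0262), and Mycn, a MYC family factor, at 157 and 221 CPM (-0.50, 0.0382). Sall1, a zinc finger relative of Sall4, was higher, at 8.55 CPM in female CKO and 3.57 CPM in female Ctrl (1.26, edgeR adjusted p = 0.0326). Sall4 (-0.57, edgeR adjusted p = 0.0432) and Rif1 (-0.40, 0.0474) were lower as well, named after their values were seen. Without female CKO 1, female Ctrl 2 or female Ctrl 3, 0 of the 20 were called, and with library size as the only scaling 1 was lower and 1 higher.

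In male CKO 0 of these 20 partners were called, with a median of -0.14. Between the sexes 10 were lower and 2 higher in female CKO than in male CKO, and 12 were lower and 4 higher in female Ctrl than in male Ctrl. Over all genes 38.4% were called and 19.0% were called lower in CKO, and 39.5% and 19.4% in Ctrl. Tcl1, an AKT co-activator, was at 54.6 CPM in female Ctrl and 127 CPM in male Ctrl (-1.22, edgeR adjusted p = 3.28e-05). Tet1, which oxidises 5-methylcytosine, was at 121 and 288 CPM (-1.25, edgeR adjusted p = 0.000139). Lin28a, an RNA-binding inhibitor of let-7 maturation, was higher in females, at 141 and 69.0 CPM (1.03, edgeR adjusted p = 0.000151).

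Among all genes 7.17% were called in female CKO against female Ctrl, and 1.70% in male CKO against male Ctrl. Of the 9 naive pluripotency factors, 1 was higher in female CKO and 0 lower. This was Klf4, at 5.71 CPM in female CKO and 2.23 CPM in female Ctrl (1.36, edgeR adjusted p = 0.0370), and 0 of 9 were called in male CKO. Among 7 tested target genes of POU5F1 and SOX2 in embryonic stem cells, Fgfr2, a receptor of fibroblast growth factors, was lower, at 31.2 CPM in female CKO and 59.1 CPM in female Ctrl (-0.92, edgeR adjusted p = 0.0267). The other 6 were not called in females and 0 of 7 in males. Between the sexes 5 of these 7 were lower in females in either genotype, where 19.0% of all genes were lower in CKO and 19.4% in Ctrl. This list shares genes, Nodal and Tdgf1 among them, with the list of GDF3 signalling given next. The counts of these lists are thus not independent of each other. Of 7 formative or primed markers, Zic5 was lower in female CKO (-2.34, edgeR adjusted p = 0.0170), and the DNA methyltransferase gene Dnmt3b was higher in male CKO (0.92, edgeR adjusted p = 0.0213). Of 11 POU and SOX relatives tested, Sox3 was higher in female CKO, at 7.34 CPM, against 2.99 CPM in female Ctrl (1.29, edgeR adjusted p = 0.0234), and 0 were called in males.

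Of 13 tested genes of the pathway through which GDF3 signals, Smad4, the shared SMAD of TGF-beta signalling, was lower in female CKO, at 80.2 CPM, against 129 CPM in female Ctrl (-0.68, edgeR adjusted p = 0.0101). The other 12 were not called in females, where 7.17% of all genes were called, and 0 were called in males, where 1.70% were. Between the sexes 2 of the 13 were higher and 5 lower in females, in CKO and in Ctrl embryos, with a median log2 fold change of 0.05 in CKO and -0.12 in Ctrl, where 38.4% and 39.5% of all genes were called. Among the lower ones, the ligand gene Nodal was at 3.40 CPM in female CKO and 45.3 CPM in male CKO (-3.73), and at 4.91 CPM in female Ctrl and 59.1 CPM in male Ctrl (-3.59). Tdgf1, the co-receptor gene, was at 0.0854 CPM in female Ctrl and 24.0 CPM in male Ctrl (-8.07). Of 4 tested genes in a list of other Dppa genes, relatives and pseudogenes, 1 was lower and 0 higher in female CKO. Their median log2 fold change was -0.33, and 4.16% of all genes were called lower. The called gene was Ooep, a KH-domain gene next to Dppa5a on chromosome 9. Ooep was at 4.88 ± 0.368 CPM in female CKO, against 13.6 ± 5.47 CPM in female Ctrl (-1.47, edgeR adjusted p = 0.0163). It was at 26.8 ± 2.18 CPM in male CKO and 36.6 ± 9.18 CPM in male Ctrl, without a call in males (-0.45, edgeR adjusted p = 0.377).

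Each gene's nearest profile was taken as the tested gene with the smallest root mean square difference in mean-centred log2 CPM over the 12 libraries. Pou5f1 was nearest to Cep89 (0.101) and Sox13 (0.106), and Dppa4 was the nearest of the 10 genes to it, at 0.113. Nanog was nearest to Pla2g10 (0.178) and Ddx19a (0.199), and of the 10 genes to Gdf3 (0.228). Dppa3 was nearest to Ldhb (0.120) and Nop2 (0.138), Dppa4 to Lsg1 (0.106) and Xrcc5 (0.108), and Dppa5a to Cd59b (0.206) and Cmah (0.232). Utf1 was nearest to Rpp25 (0.117) and Mccc1 (0.118), and Zfp42 to Impdh2-ps (0.201) and Zfp932 (0.210). Sox2 was nearest to Ccnj (0.0908) and Lrrc58 (0.103), Dppa2 to Runx1t1 (0.158) and Slc15a1 (0.161), and Gdf3 to a gene without a symbol (0.166) and Atp8a1 (0.201). Of the 10 genes only Pou5f1 and Dppa4 were among each other's 5 nearest.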

How the data were processed

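Per the labels' protocols, SMART-seq V4 was used on 1 ng of RNA per embryo. This kit keeps no strand, so reads of overlapping genes on opposite strands cannot be told apart by strand. Read counts per gene of 12 libraries, 1 per embryo, are the values the authors deposited. The tools in the submitters' processing notes are featureCounts, TopHat2 2.0.11, Trimmomatic 0.33 and CASAVA 1.8.4, and the builds named are mm9 and NCBIM37. How reads with several matches were counted is not given in the sources used here. Of 37991 identifiers, 32919 matched a symbol (99.5% of counts). Exon lengths come from GENCODE M21 on GRCm38, another build, so no coordinates of the counted genes are given.

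Genes were kept with filterByExpr (minimum count 10, minimum total 15) and libraries scaled by TMM (factors 0.926 to 1.11), so that 1 CPM was 24.2 to 34.2 counts. A robust quasi-likelihood fit in edgeR 4.0.16 (R 4.3.3) had a coefficient for each of the 4 groups and 8 residual degrees of freedom. Standard errors came from the F statistic, and p-values were adjusted over all 16708 genes. The fit was tested on simulated data. Within groups, library pairs had a chi-square per gene of 16.8 to 66.2, above counting noise. The alternatives were other size factors and filters, a replicate block (and, added after seeing the data, one by the numbers of the column headers), limma-voom (limma 3.58.1), DESeq2 1.42.0, fits of only the groups compared, and each library left out.

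The members and the gene lists were chosen with earlier results of these data known. Of 143 list entries, 137 matched. Named are the 10 members, Ezh2, Stra8, Sycp3, per list some of the up to 4 called genes with the smallest adjusted p in a comparison, and per member the 2 nearest profiles. Outside this rule, Sall4 and Rif1 were named after their values were seen, and Gm19553 and Dppa3-ps because they overlap or resemble a member. One called gene of a list is not reported here.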

Additional observations from a re-analysis of the deposited data

Results flagged for a closer look

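In the only group of 4 embryos, male Ctrl, 2 of the 10 genes had a library far from the others. Utf1 stood at 657 CPM in male Ctrl 2, against 536 to 543 CPM in the other 3 libraries, so that this gap was 0.948 of the group's range. Gdf3 stood at 38.0 CPM in male Ctrl 1, against 53.1 to 54.3 CPM in the others, a gap of 0.929 of the range. Chance alone flags about 1 in 20 groups, and 10 were examined. Without male Ctrl 1, the male log2 fold change of Gdf3 was -0.46.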

How the results depend on the processing

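Of the 1000 comparisons of a gene's value with an alternative, 908 kept direction and call, 51 lost and 9 gained the call, and 32 changed sign, all of them in genes that were not called. In females the number of the 10 genes called ran from 0 to 6 over the left-out libraries, and that of all genes from 317 to 691, with 2035 in limma-voom and 1989 in DESeq2, against 1198. In males all genes called numbered 105 with the replicate block, 1098 in limma-voom, 990 in DESeq2, 63 with only the groups compared and 36 to 502 over the left-out libraries, against 284. The difference between effects gave 2 calls with no filter, 61 in DESeq2 and 0 to 3 over the left-out libraries, and 0 of the 10 genes in each. For the mean effect the left-out libraries gave 3 to 6 of the 10 genes and 1363 to 2803 of all genes, and for female against male CKO 4063 to 5602 of all genes. A CKO female left alone was assumed to vary like the other groups.

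Signs changed as follows. With library size only, Sox2 in females was 0.086, Dppa2 in female against male CKO 0.044 and Zfp42 in the difference 0.048. With the filter of 5 CPM in 2 libraries, Sox2 in females was 0.036 and Zfp42 in the difference 0.023. With the replicate block, the male values of Dppa2 and Utf1 were 0.0030 and -0.0074, Zfp42 in the difference was 0.080 and Sox2 in female against male CKO -0.045. That last value was -0.0056 with no filter and -0.012 in limma-voom. Over the left-out libraries, Sox2 ran from -0.23 to 0.16 in females, from -0.35 to 0.036 in the difference, from -0.051 to 0.14 in the mean effect and from -0.20 to 0.19 in female against male CKO. Zfp42 ran from -0.41 to 0.077 in females, from -0.33 to 0.021 in males and from -0.24 to 0.25 in the difference, Utf1 from -0.74 to 0.0022 in females, from -0.020 to 0.080 in males and from -0.37 to 0.0037 in the mean effect, and Dppa2 from -0.66 to 0.24 in female against male CKO. The cause was not tested.

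No clear pairing of embryos by the replicate numbers of the titles was seen: of 15 same-numbered pairs, 2 had deviations correlated above 0.1 (range -0.09 to 0.13). Deviations are taken from the group mean, so the 2 female CKO libraries mirror each other. With groups this small the check cannot exclude shared litters or batches. The replicate block moved the female calls to 4 of the 10 genes, Dppa5a losing its call (edgeR adjusted p = 0.0528). The column headers number 4 of the 12 libraries, all female, otherwise, and by these numbers 0 of 13 pairs were correlated above 0.1 (range -0.13 to 0.09). A block by the header numbers, chosen after seeing the data, called 789 genes in females, the same 5 of the 10 genes among them, and 141 genes in males, where Dppa2 changed sign to 0.0100.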
